A study of Homo sapiens with 12 samples.

Results

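The 33 aminoacyl-tRNA synthetase genes described here comprise 18 genes for cytosolic enzymes and 15 genes for mitochondrial enzymes. They were taken by symbol from a list of synthetase genes and not by their expression. All 33 were found among the 22784 gene symbols with values, and all 33 passed the filter on low values that left 14839 genes for testing. Aspartyl- and valyl-tRNA synthetases were not on the list. The cells were SK-UT-1, an established line of human uterine leiomyosarcoma (uLMS), a malignant tumor of the uterine smooth muscle. They were treated for 48 h with 5 µM JQ1 (4 libraries) or 5 µM I-BET-762 (3 libraries), which are small-molecule inhibitors of the BET bromodomain proteins, or received the vehicle DMSO alone (3 libraries). All libraries came from a single cell line with no genetic change named in the labels, so the values describe 1 tumor model. In bulk RNA a change in the number of cells of a state and a change in the RNA per cell cannot be told apart.

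Aminoacyl-tRNA synthetases attach each amino acid to its matching tRNA and so set which amino acid a codon calls for during translation. Cytosolic and mitochondrial protein synthesis draw on separate tRNA pools, and for most amino acids each compartment has an enzyme from its own nuclear gene, with the suffix 2 on the mitochondrial member. GARS1 and KARS1, for glycine and lysine, serve both compartments from a single gene. Several cytosolic enzymes are held together with the scaffold proteins AIMP1, AIMP2 and EEF1E1 in the multisynthetase complex. Uncharged tRNA is sensed by the kinase GCN2 (EIF2AK4), which leads to translation of the transcription factor ATF4, and many cytosolic synthetase genes are known ATF4 targets.

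The 10 libraries held 35564586 to 39658989 reads on genes, and the deposited values are log2 of a size-factor-normalized read count plus 1. Normalized totals were 34444558.2 to 35683739.7 in DMSO, 39218685.9 to 41845407.1 with JQ1 and 37196648.7 to 37829696.6 under I-BET-762, so they did not overlap. HEXIM1, a gene that responds to BET inhibition in many cell types, rose with JQ1 (log2 fold change 1.53) and under I-BET-762 (1.05). MYC, at 4971 to 5339 counts in DMSO, rose to 9632 to 11028 with JQ1 and to 7063 to 7860.5 under I-BET-762, BRD3 fell by 0.33 and 0.37, and BRD2 gave 7 to 153 counts, with 95.6% of its exon stretches copied elsewhere in the genome build. Of 9 smooth muscle markers, 8 were in the table. Their summed normalized count was 20500.0 to 21136 in DMSO, 10662 to 11269 with JQ1 and 11822 to 12374 under I-BET-762, with 6 of the 7 tested markers lower under both inhibitors and MYOCD near 0 throughout. Endothelial markers summed to at most 7.4 and the 3 immune markers in the table to at most 37.0 in any library, and 5 epithelial markers summed to 1212 to 1271 in DMSO and to 497 to 602 under the inhibitors. The 5 mesenchymal markers summed to 127991 to 137113 in DMSO, 159802 to 172080 with JQ1 and 136815 to 140326 under I-BET-762, with VIM (0.44) and FN1 (0.95) higher and COL1A1 (-3.44) and COL1A2 (-0.82) lower with JQ1. The part of these shifts in the synthetase values was not tested.

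Differences were fitted with limma across all 14839 genes. Here a gene is said to have risen or fallen when its Benjamini-Hochberg adjusted p was under 0.05, and it is called a differentially expressed gene (DEG) when the fold change was also over 1.5, which is 0.585 on the log2 scale. With JQ1, 5 of the 33 synthetase genes were DEGs (15.2%), 3 higher and 2 lower, against 36.1% of all genes tested, 13.3% higher and 22.8% lower. With I-BET-762, 4 were DEGs (12.1%), 3 higher and 1 lower, against 26.9% of all genes, 8.96% higher and 17.9% lower. FARSB, MARS2 and CARS1 were the higher DEGs and FARS2 was a lower DEG under both compounds, and YARS2 was a lower DEG with JQ1. The comparisons with each inhibitor share the same 3 DMSO libraries, so their calls are not independent of each other.

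The share of members called at the adjusted p was near that of all genes. At this threshold, 14 members rose and 9 fell with JQ1, where 71.7% of all genes passed, 36.0% higher and 35.6% lower, and 14 rose and 8 fell under I-BET-762, where 61.1% passed, 29.9% higher and 31.3% lower. The treated and DMSO libraries did not overlap for 23 members with JQ1, against 68.4% of all genes, and for 26 members under I-BET-762, against 71.0%. The median absolute log2 fold change was 0.38 among the members and 0.43 among all genes with JQ1, and 0.22 against 0.33 under I-BET-762. Signed medians were 0.05 for the members and 0.01 for all genes with JQ1, and 0.02 and 0.00 under I-BET-762. The cytosolic genes had medians of 0.21 and 0.17 and the mitochondrial genes 0.02 and 0.01, but when libraries were rescaled to equal totals, which moved the median of all genes to -0.18 and -0.10, the cytosolic medians became 0.02 and 0.08 and the mitochondrial ones -0.17 and -0.09. The split of member calls under that scaling was 11 higher and 16 lower with JQ1, where 23.8% of all genes were higher and 46.7% lower. Under I-BET-762 the split was 10 higher and 13 lower, where 22.7% of all genes were higher and 38.3% lower. Small changes near 0 therefore depend on the scaling, and the larger ones described next kept their direction.

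**Figure D1:**
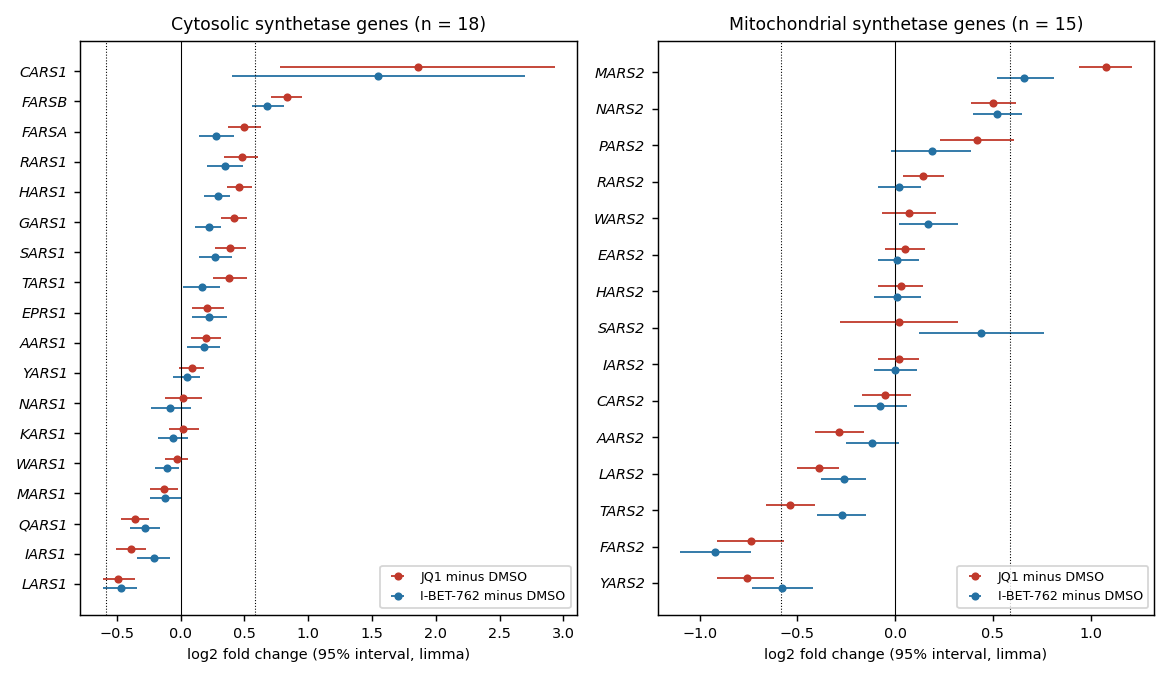
Log2 fold change of each synthetase gene against DMSO (x axis) with its 95% interval from limma, for JQ1 (red) and I-BET-762 (blue), with cytosolic genes on the left and mitochondrial genes on the right. Dotted lines mark the 1.5-fold threshold, which MARS2 and FARSB exceeded upward and FARS2 downward under both inhibitors, and CARS1, with counts of 39 or fewer in every library, had the widest intervals.

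Levels of the members in DMSO were compared per length, as normalized reads per kb of the canonical transcript. KARS1, the lysine enzyme (chr16:75627474-75648643, hg38, minus strand), stood highest with 5687 per kb on average and 5403 to 5903 over the 3 libraries, ahead of IARS1 with 5000.0 and NARS1 with 4722 per kb. The highest mitochondrial gene was IARS2 with 2523 per kb, and it stood above the cytosolic genes YARS1, WARS1, FARSA, FARSB and CARS1. Apart from IARS2, the mitochondrial genes lay between 62.5 per kb for SARS2 and 1182 per kb for RARS2. FARSB was listed low at 358 per kb beside its partner subunit FARSA at 1317, with a canonical transcript of 6.761 kb against 1.811 kb. Among the 32 pairs of neighbours in this order, 12 had overlapping DMSO ranges and were not separated, among them IARS1 and NARS1, TARS1 and GARS1, SARS1 and RARS1, and the run of EARS2, FARS2, FARSB and WARS2.

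**Figure D2:**
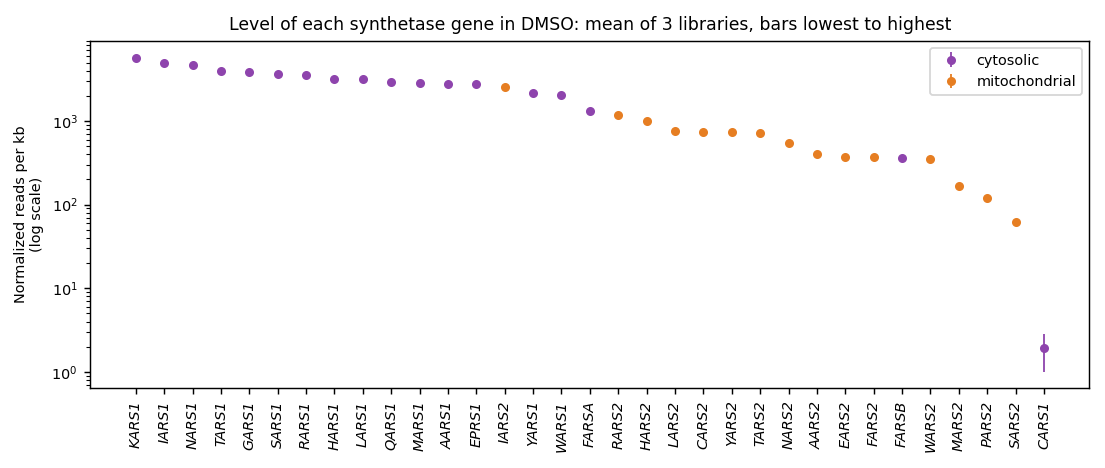
Level of each synthetase gene in DMSO as normalized reads per kb of canonical transcript (y axis, log scale), ordered from highest to lowest, with points at the mean of 3 libraries and bars from the lowest to the highest library. Cytosolic genes (purple) fill the upper end from KARS1 at 5687 per kb, and mitochondrial genes (orange) other than IARS2 lie at or below 1182 per kb.

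KARS1 itself did not pass the test on the deposited scale. Its normalized counts were 10758, 11752 and 11456 in DMSO, 10962, 12632, 11348 and 11171 with JQ1, and 10981, 10899.9 and 10600.1 under I-BET-762. The groups overlapped, and the log2 differences were 0.02 (95% interval -0.09 to 0.14) and -0.06 (-0.18 to 0.06). IARS2, which charges the mitochondrial isoleucine tRNA, gave 8396, 9321 and 8998 in DMSO, 8859.8, 9592, 8748 and 8836 with JQ1, and 8748, 9005 and 9011 under I-BET-762. All 3 groups overlapped for IARS2, and the differences were 0.02 (-0.09 to 0.12) and 0.00 (-0.11 to 0.11). With equal totals KARS1 was called lower under both compounds (-0.16 and -0.16) and IARS2 lower with JQ1 (-0.17).

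The phenylalanine enzymes moved in opposite directions in the cytosol and the mitochondrion. The cytosolic enzyme is a tetramer of FARSA and FARSB subunits, whereas FARS2 works in mitochondria as a single chain. FARSB (chr2:222566899-222656092, minus strand) had normalized counts of 2338, 2408 and 2523 in DMSO, 4056, 4786, 4209.9 and 4185 with JQ1, and 3947, 3920.0 and 3797 under I-BET-762. Every treated library was above every DMSO library, and the log2 fold change was 0.83 ± 0.06 (SE) with JQ1 (limma adjusted p = 1.91e-09) and 0.68 ± 0.06 under I-BET-762 (adjusted p = 8.86e-08). FARSA (chr19:12922479-12934037, minus strand) rose by 0.50 ± 0.06 and 0.28 ± 0.06, under the fold threshold with both compounds. FARS2 (chr6:5261044-5829192, plus strand) had 655, 618 and 602 counts in DMSO, 352, 409, 372 and 364 with JQ1, and 306, 348 and 334 under I-BET-762. No treated library reached the lowest DMSO value, and FARS2 fell by 0.74 ± 0.08 on the log2 scale with JQ1 (adjusted p = 4.43e-07) and by 0.92 ± 0.08 under I-BET-762 (adjusted p = 1.43e-07).

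The sequences just before the RefSeq starts of this pair are shown because FARSB and FARS2 are the partners that diverged most among the pairs without uncertain counting. They are the 250 bases upstream of FARSB (chr2:222656093-222656342, minus strand) and of the first FARS2 start (chr6:5260757-5261006, plus strand) in GRCh38.p14. Neither holds CACGTG, the E-box bound by MYC and related factors, nor TGATGNAA on either strand, an element bound by ATF4, so no letters are in capitals.
FARSB: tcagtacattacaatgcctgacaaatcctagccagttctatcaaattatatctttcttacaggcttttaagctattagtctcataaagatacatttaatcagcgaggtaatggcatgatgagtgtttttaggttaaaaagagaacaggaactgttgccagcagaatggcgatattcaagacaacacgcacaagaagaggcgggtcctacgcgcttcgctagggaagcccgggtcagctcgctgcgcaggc
FARS2: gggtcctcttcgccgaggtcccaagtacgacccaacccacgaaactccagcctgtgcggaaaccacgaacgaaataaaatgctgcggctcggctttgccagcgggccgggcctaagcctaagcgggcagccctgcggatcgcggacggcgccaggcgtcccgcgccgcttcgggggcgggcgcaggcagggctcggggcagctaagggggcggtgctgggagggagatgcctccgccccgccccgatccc

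The methionine enzymes also diverged, with the mitochondrial gene going up. MARS2, an intronless gene (chr2:197705369-197708395, plus strand), had 506, 531 and 474 counts in DMSO, 1138, 1009.7, 1059.5 and 1043 with JQ1, and 797, 795 and 796 under I-BET-762. Its 3 groups did not overlap, with JQ1 highest and DMSO lowest. The log2 fold change was 1.08 ± 0.06 with JQ1 (limma adjusted p = 3.63e-10), a 2.11-fold rise, and 0.66 ± 0.07 under I-BET-762 (adjusted p = 4.81e-07), which became 0.57 and so slipped under 1.5-fold when totals were made equal. MARS1, the cytosolic enzyme and a member of the multisynthetase complex, fell by 0.13 with JQ1 and was -0.12 under I-BET-762, where the adjusted p was 0.0739. In MARS1, 12.4% of the exon bases lie opposite other genes including DDIT3, which rose by 0.84 and 0.63, and whether the read counting used the strand was not given in the sources used here.

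The promoter of MARS2 is shown because it held an E-box, in capitals, in the 250 bases before the start (chr2:197705119-197705368, plus strand, GRCh38.p14). Its first base lies 11 bases before the start.
MARS2: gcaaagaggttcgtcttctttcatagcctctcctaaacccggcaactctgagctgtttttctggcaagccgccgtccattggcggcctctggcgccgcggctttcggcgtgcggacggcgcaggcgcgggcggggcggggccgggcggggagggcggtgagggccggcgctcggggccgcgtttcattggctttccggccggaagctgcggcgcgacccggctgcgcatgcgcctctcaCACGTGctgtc

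Tyrosine, threonine, leucine and alanine enzymes of the mitochondrion fell with JQ1. YARS2 (chr12:32727490-32755897, minus strand) had 1386, 1659 and 1622 counts in DMSO, 880.2, 955, 950.4 and 867 with JQ1, and 1045, 1065 and 1009 under I-BET-762. All treated libraries were below all DMSO libraries, and DMSO replicate 13 was the lowest of its group. YARS2 fell by 0.76 ± 0.07 with JQ1 (adjusted p = 4.79e-08) and by 0.58 ± 0.07 under I-BET-762 (adjusted p = 4.61e-06), just inside 1.5-fold, and the I-BET-762 change passed 1.5-fold without DMSO replicate 13 (-0.66), without I-BET-762 replicate 22 (-0.59) or with equal totals (-0.67). An opposite-strand gene overlaps 18.1% of the exon bases of YARS2. TARS2 fell by 0.54 and 0.27, and its JQ1 change passed the threshold with equal totals (-0.72). LARS2 fell by 0.39 and 0.26, and AARS2 fell by 0.29 with JQ1 and was -0.12 under I-BET-762 without passing the test.

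The 250 bases before the YARS2 start (chr12:32755898-32756147, minus strand, GRCh38.p14) are shown as the only member promoter outside the listed ATF4 targets that held TGATGNAA, in capitals.
YARS2: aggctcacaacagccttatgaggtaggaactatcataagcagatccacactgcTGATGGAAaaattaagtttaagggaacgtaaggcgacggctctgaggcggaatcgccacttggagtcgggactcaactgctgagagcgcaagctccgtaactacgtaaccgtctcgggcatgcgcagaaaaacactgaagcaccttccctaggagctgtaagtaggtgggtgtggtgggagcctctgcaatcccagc

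**Figure D3:**
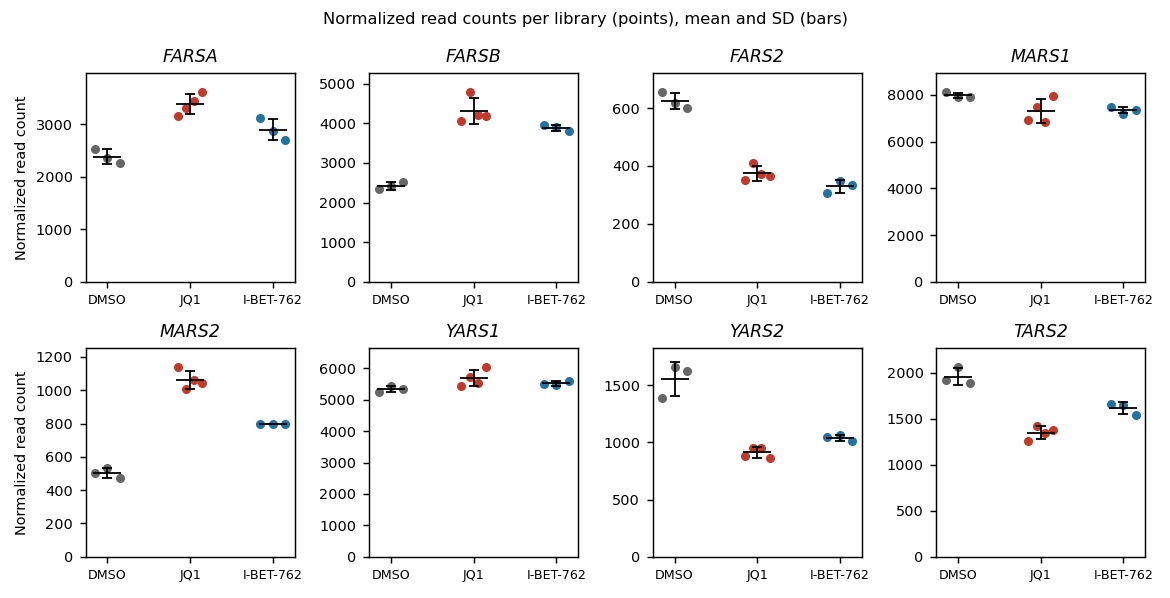
Normalized read count (y axis, from 0) of 8 synthetase genes in each library (points) with the mean and SD (black) for DMSO (n = 3), JQ1 (n = 4) and I-BET-762 (n = 3). FARSB and MARS2 sit higher and FARS2 and YARS2 lower in every treated library than in every DMSO library, whereas the groups of YARS1 lie close together.

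Of the remaining mitochondrial genes, NARS2, which charges mitochondrial asparagine tRNA, rose by 0.50 and 0.52, close to but under 1.5-fold, from 1344 to 1419.6 counts in DMSO to 1847 to 2149 with JQ1 and 1985 to 2006 under I-BET-762. PARS2, the proline enzyme, rose by 0.42 with JQ1 and was 0.19 higher under I-BET-762 without passing (adjusted p = 0.102). RARS2 rose by 0.14 with JQ1, a direction that reversed to -0.04 with equal totals, and WARS2 rose by 0.17 under I-BET-762 alone, which became 0.08 and lost its call under that scaling. CARS2, EARS2, HARS2 and IARS2 did not pass with either compound, with log2 differences of -0.08 to 0.05. With equal totals all 4 were called lower with JQ1, at -0.23, -0.14, -0.16 and -0.17, and CARS2 also under I-BET-762 (-0.17). HARS2 and HARS1 lie head to head on chromosome 5 with overlapping 5′ ends. HARS1 rose by 0.46 and 0.29, and HARS2 was at 0.03 and 0.01.

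The 7 enzymes of the multisynthetase complex had a median log2 fold change of -0.13 with JQ1 and -0.12 under I-BET-762. LARS1, the leucine enzyme, fell by 0.49 and 0.47, from 14149 to 15475 counts in DMSO to 10010.4 to 12080.3 with JQ1 and 10651 to 10937 under I-BET-762, and its JQ1 change passed 1.5-fold with equal totals (-0.67). IARS1 fell by 0.39 and 0.21 and QARS1, the glutamine enzyme, by 0.36 and 0.28. In the other direction, RARS1, the arginine enzyme, rose by 0.48 and 0.35, and EPRS1, which carries both glutamyl and prolyl activities on a single chain, rose by 0.21 and 0.22. With JQ1, 2 of these 7 rose and 4 fell, and under I-BET-762, 2 rose and 3 fell, and 0 were DEGs. Of all genes, 36.0% rose and 35.6% fell with JQ1, so calls in both directions are the background here. With equal totals the counts became 1 and 5 with JQ1, where 23.8% of all genes were higher and 46.7% lower. Under I-BET-762 they became 2 and 5, where 22.7% of all genes were higher and 38.3% lower. Of the scaffolds, AIMP2 had 1894, 2069 and 1912 counts in DMSO, 3324, 3701, 3636 and 3325 with JQ1, and 3225.5, 3170.1 and 3217 under I-BET-762. AIMP2 was higher in every treated library and was a DEG with both compounds (0.84 and 0.71), EEF1E1, which shares 18.8% of its exon bases with another gene on the same strand, rose by 0.32 and 0.41, and AIMP1 fell by 0.25 with JQ1 and was -0.14 under I-BET-762 (adjusted p = 0.0928). Exons of EIF2AK1 on the opposite strand overlap 29.1% of the exon bases of AIMP2.

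The 11 cytosolic enzymes outside the complex had medians of 0.39 with JQ1 and 0.22 under I-BET-762. Of these, 8 rose and 0 fell with JQ1, where 36.0% of all genes rose and 35.6% fell, and 8 rose and 1 fell under I-BET-762, where 29.9% rose and 31.3% fell. With equal totals the counts became 7 and 2 with JQ1 and 6 and 2 under I-BET-762, with NARS1 and WARS1 the lower genes. Under that scaling 23.8% of all genes were higher and 46.7% lower with JQ1, and 22.7% and 38.3% under I-BET-762. CARS1, whose counting was uncertain, was among the higher genes in each of these counts. HARS1, GARS1, SARS1 and TARS1, for histidine, glycine, serine and threonine, rose by 0.46, 0.42, 0.39 and 0.38 with JQ1 and by 0.29, 0.22, 0.27 and 0.17 under I-BET-762, all under 1.5-fold, and TARS1 under I-BET-762 lost its call with equal totals (0.07). AARS1 rose by 0.20 and 0.18, calls that were both lost with equal totals (0.02 and 0.08), as was that of EPRS1 with JQ1 (0.03). YARS1 and NARS1 did not pass with either compound, with differences of 0.09 and 0.05 for YARS1 and 0.02 and -0.08 for NARS1. WARS1, the tryptophan enzyme, whose gene is known to be induced by interferon-gamma, was at -0.03 with JQ1 and fell by 0.11 under I-BET-762. By structural class, the 17 genes with a class I catalytic domain had a median of 0.02 and the 17 with a class II domain 0.21 with JQ1, with EPRS1 counted in both.

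Counting was uncertain for CARS1 and SARS2. CARS1, the cytosolic cysteine enzyme (chr11:3000922-3057613, minus strand), had 7.7, 5.5 and 2.7 counts in DMSO, 14.3, 29.4, 11.0 and 38.5 with JQ1, and 36.4, 8.0 and 14.8 under I-BET-762. The floor of 3 reads corresponds to 2.73 to 3.3 normalized counts, so the lowest DMSO library stood at about this floor. The treated libraries spread widely, and the lowest of them, at 8.0, lay just above the highest DMSO library. Of the 75-base stretches of its exons, 87.1% have an exact copy on an alternate contig of the genome build, and which contigs the read alignment used was not given in the sources used here. CARS1 was higher by 1.86 ± 0.51 with JQ1 (limma adjusted p = 0.00378) and by 1.55 ± 0.54 under I-BET-762 (adjusted p = 0.0213), and the I-BET-762 call was lost without DMSO replicate 15 (1.21, adjusted p = 0.095), without I-BET-762 replicate 21 (adjusted p = 0.139) and without the intensity trend (adjusted p = 0.0571). SARS2 shares 48.2% of its exon bases with another annotated gene on the same strand. It had 129.8, 106 and 125 counts in DMSO, 156, 111, 103 and 121 with JQ1, and 157, 160.4 and 171 under I-BET-762. JQ1 and DMSO overlapped (0.02), and the I-BET-762 libraries were higher (0.44, adjusted p = 0.0199), a call lost with equal totals (0.34). Without these members, 2 genes were higher and 2 lower DEGs with JQ1, and 2 were higher and 1 lower under I-BET-762.

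The ratio of a mitochondrial gene to its cytosolic partner within a library does not depend on how libraries are scaled, and it is given here as a description with no test. The count ratio of FARS2 to FARSB was 0.238 to 0.28 in DMSO, 0.0855 to 0.0884 with JQ1 and 0.0775 to 0.0887 under I-BET-762, changes of -1.57 and -1.61 in log2 ratio. FARS2 to FARSA changed by -1.24 and -1.21. The ratio of MARS2 to MARS1 went the other way, from 0.0599 to 0.0672 in DMSO to 0.131 to 0.164 with JQ1 and 0.107 to 0.11 under I-BET-762, changes of 1.21 and 0.78. TARS2 to TARS1 lay at 0.173 to 0.193 in DMSO, 0.0894 to 0.108 with JQ1 and 0.13 to 0.138 under I-BET-762, and YARS2 to YARS1 at 0.264 to 0.305, 0.144 to 0.172 and 0.18 to 0.195. For these pairs no treated library entered the DMSO range. NARS2 to NARS1 and IARS2 to IARS1 were higher in treated libraries, by 0.48 and 0.60 and by 0.41 and 0.22, where in the first pair the mitochondrial gene had risen and in the second the cytosolic gene had fallen. The ratios of LARS2 to LARS1 and of WARS2 to WARS1 overlapped between JQ1 and DMSO. Under I-BET-762 both of these ratios were higher in every library, by 0.21 and 0.28. AARS2 to AARS1, HARS2 to HARS1 and RARS2 to RARS1 were lower, with changes of -0.49, -0.43 and -0.33 with JQ1 and -0.30, -0.28 and -0.33 under I-BET-762. Summed normalized counts of the mitochondrial genes, 29574 to 30931 in DMSO, 28757 to 30568 with JQ1 and 29396 to 29906 under I-BET-762, overlapped. As a share of the library's reads they did not, with 0.0859 to 0.0867% in DMSO, 0.073 to 0.0747% with JQ1 and 0.078 to 0.0791% under I-BET-762, so whether the sum was lower depends on the scaling.

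**Figure D4:**
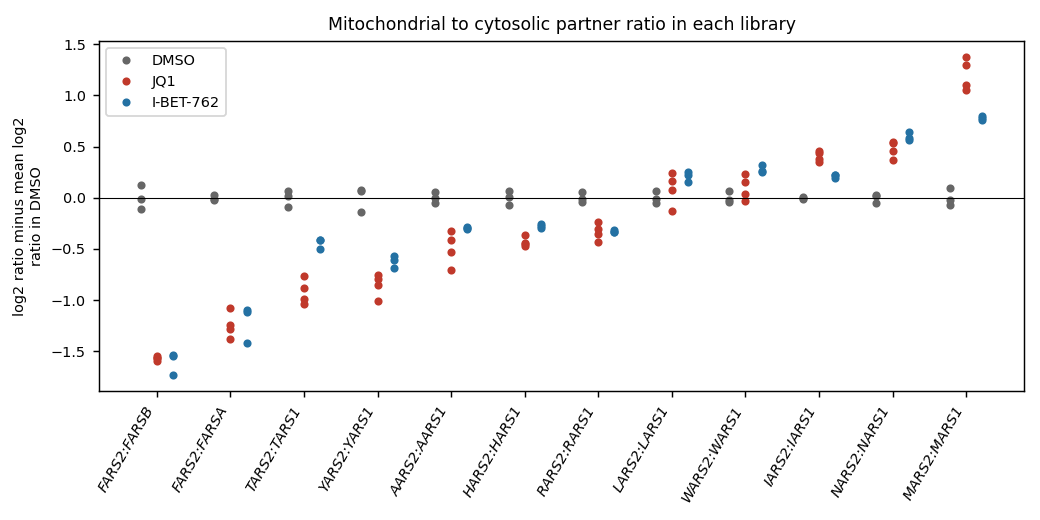
Log2 ratio of mitochondrial to cytosolic partner count in each library minus the mean log2 ratio in DMSO (y axis), for 12 pairs ordered by the JQ1 change and with CARS and SARS left out, for DMSO (grey), JQ1 (red) and I-BET-762 (blue). FARS2 to FARSB lies lowest, at -1.57 and -1.61 on average, and MARS2 to MARS1 highest, at 1.21 and 0.78.

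JQ1 and I-BET-762 were compared directly at the same dose and time as 1 pair of compounds. JQ1 is a thienotriazolodiazepine and I-BET-762 a triazolobenzodiazepine, so the fused ring differs between them. By limma, 0 synthetase genes were DEGs between the compounds, against 5.31% of all genes, 1.73% higher with JQ1 and 3.59% lower. At the adjusted p alone 5 were higher and 4 lower with JQ1, where 27.3% of all genes passed, 13.3% higher and 14.0% lower. The groups of the 2 compounds did not overlap for 17 members, against 33.8% of all genes. MARS2 was 0.41 higher with JQ1 on the log2 scale (95% interval 0.28 to 0.55, adjusted p = 2.2e-04), and FARSA (0.22), TARS1 (0.21), GARS1 (0.20) and HARS1 (0.17) were also higher. TARS2 was lower, at -0.26 (-0.38 to -0.14, adjusted p = 0.00323), as were IARS1 (-0.18), AARS2 (-0.17) and the uncertain SARS2 (-0.42). FARSB differed by 0.15 (0.03 to 0.26, adjusted p = 0.0661), FARS2 by 0.18 (0.02 to 0.35, adjusted p = 0.0976) and YARS2 by -0.19 (-0.33 to -0.04, adjusted p = 0.0507), none of which passed. For 31 of the 33 members the 95% interval of the difference lay within 1.5-fold in either direction, the exceptions being CARS1 (-0.76 to 1.39) and SARS2 (-0.72 to -0.12). NARS2 (-0.02, interval -0.13 to 0.10) and LARS1 (-0.01, interval -0.14 to 0.11) had differences centered near 0. With equal totals, 2 members were higher and 8 lower with JQ1, where 6.74% of all genes were higher and 23.8% lower.

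Promoter windows of 300 bases (250 before and 50 after a RefSeq start) were found for 30 of the 33 members, with LARS1, YARS1 and AARS2 missing. TGATGNAA stood on either strand in 8 of the 30 (26.7%), against 4.46% of all genes with a window and 2.67% of the tested genes. Of 12 cytosolic genes listed as ATF4 targets, 10 had a window and 7 of these held the element. The sites are shown with 10 flanking bases, and their shared letters follow from the search itself, which left only the N free. The element is in capitals, printed in the gene's own direction, so that most of these sites show its reverse complement.
AARS1 (chr16:70289676-70289703, minus strand): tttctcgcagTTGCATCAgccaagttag
CARS1 (chr11:3057408-3057435, minus strand): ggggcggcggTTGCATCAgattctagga
GARS1 (chr7:30594835-30594862, plus strand): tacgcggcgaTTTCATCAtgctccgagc
IARS1 (chr9:92293693-92293720, minus strand): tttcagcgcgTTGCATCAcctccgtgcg
MARS1 (chr12:57488054-57488081, plus strand): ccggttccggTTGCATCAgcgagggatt
NARS1 (chr18:57621805-57621832, minus strand): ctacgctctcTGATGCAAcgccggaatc
TARS1 (chr5:33440957-33440984, plus strand): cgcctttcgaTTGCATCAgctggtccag

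These genes did not move alike. GARS1, TARS1, AARS1 and the uncertain CARS1 rose with JQ1, IARS1 and MARS1 fell, and NARS1 did not pass. The 12 genes listed as ATF4 targets had medians of 0.15 with JQ1 and 0.11 under I-BET-762, and the other 6 cytosolic genes 0.47 and 0.28. CACGTG stood in 4 of the 30 members (MARS2, IARS1, CARS2 and EARS2, 13.3%), against 8.77% of all genes and 12.3% of the tested genes. With JQ1, MARS2 rose, IARS1 fell, and CARS2 and EARS2 did not pass. A motif match is a description of the letters in the window, with no statement about binding in these cells.

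Other genes of tRNA charging and translation were read from the same fit. Median log2 fold changes with JQ1 were 0.32 for the 3 complex scaffolds, -0.49 for 3 GatCAB genes, 0.20 for mitochondrial translation factors, 0.77 for cytosolic elongation factors, and 0.10 for both tRNA maturation and proofreading, against 0.01 for all genes. The same lists gave 0.41, -0.29, 0.14, 0.31, 0.06 and 0.07 under I-BET-762, against 0.00. Of the 3 GatCAB genes, whose complex makes mitochondrial glutaminyl-tRNA in place of a mitochondrial glutamine synthetase, GATB had 835, 927 and 919 counts in DMSO, 368, 442, 361 and 353 with JQ1, and 471, 455 and 463 under I-BET-762. GATB was lower in every treated library and was a DEG with both compounds (-1.23 and -0.95), QRSL1 fell by 0.49 and 0.29, and GATC rose by 0.42 and 0.18. An opposite-strand gene overlaps part of the exons of GATB. Among 11 mitochondrial translation factors, 1 was a higher and 2 were lower DEGs with JQ1 (27.3%, against 36.1% of all genes). Under I-BET-762 the counts were 0 and 1 (9.09%, against 26.9%). MTRF1, a mitochondrial release factor, fell by 1.15 and 0.78, and GFM1, a mitochondrial elongation factor, rose by 0.65 and 0.45 (0.47 with equal totals and JQ1). MTFMT, which formylates the methionyl-tRNA that MARS2 makes, rose by 0.57 and 0.34. TSFM, with 67.3% of its exon bases shared with another gene on the same strand, fell by 0.61 with JQ1, a DEG call lost without DMSO replicate 13 (adjusted p = 0.0521) and without JQ1 replicate 18 (-0.58) or 19 (-0.48).

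Of 5 cytosolic elongation factors tested, 3 were higher DEGs with JQ1, against 13.3% of all genes, and among them was EEF1D, whose counting was uncertain. Under I-BET-762, 0 were higher DEGs, against 8.96% of all genes, and 2 rose at the adjusted p, where 29.9% of all genes rose. EEF1A1, which carries charged tRNA to the ribosome, and EEF2, the translocase, both rose by 0.77 with JQ1, and under I-BET-762 they rose by 0.50 and 0.51, with exact copies elsewhere for 18.2% of the EEF1A1 exon stretches. EEF1D was called at 2.08 with JQ1, where JQ1 replicate 20 held 718 counts against 67.0 to 115 in the other JQ1 libraries, and the change was 1.32 without that library. All of the exon stretches of EEF1D have copies elsewhere in the build, so its counting was uncertain. Of 23 genes for tRNA maturation and export, 3 were higher and 2 lower DEGs with JQ1 (21.7%, against 36.1% of all genes). Under I-BET-762 the counts were 1 and 1 (8.70%, against 26.9%). RPP40, a subunit of RNase P, which trims the 5′ end of tRNA precursors, rose by 1.01 and 0.67 (0.58 with equal totals and I-BET-762), SSB, the La protein that binds their 3′ ends, by 0.80 and 0.55, and ELAC1, an endonuclease that cuts tRNA 3′ ends, by 0.71 and 0.58 (0.52 with equal totals and JQ1). PRORP, the catalytic subunit of mitochondrial RNase P, fell by 1.66 and 1.27 from at most 48.9 counts, and 40.9% of its exon bases are shared with another gene on the same strand. Of 6 proofreading genes, PRORSD1P, annotated as a pseudogene, rose by 0.73 and 0.93 (0.55 with equal totals and JQ1) at 39.7 to 96.8 counts.

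**Figure D5:**
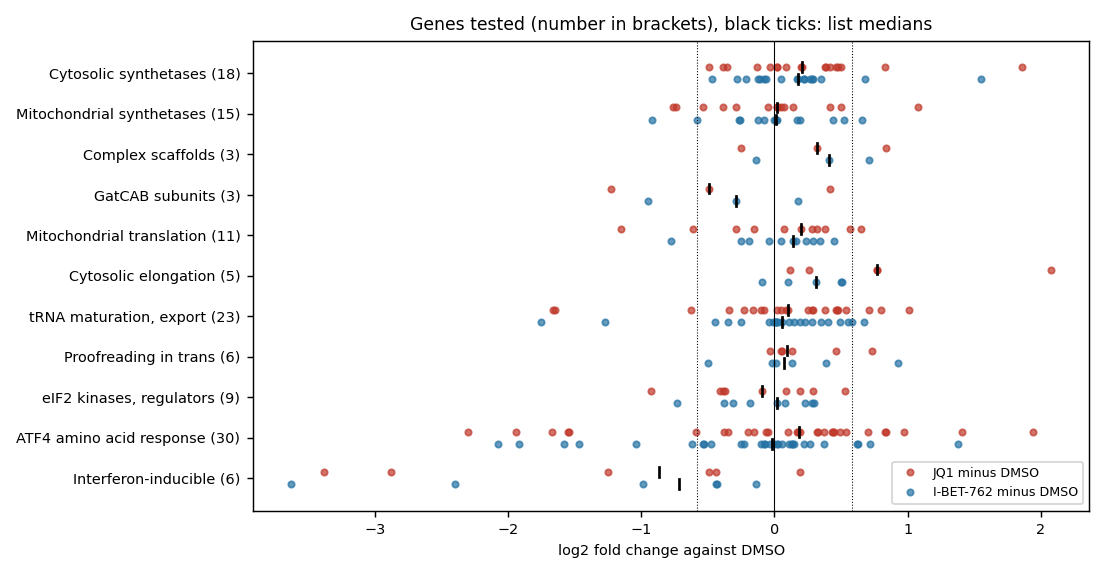
Log2 fold change against DMSO (x axis) of each tested gene in the synthetase groups and the related lists, for JQ1 (red) and I-BET-762 (blue), with list medians as black ticks and the 1.5-fold threshold dotted. The synthetase genes other than CARS1 lie between -0.92 and 1.08, whereas the ATF4 amino acid response list reaches from -2.30 to 1.94.

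Upstream of the synthetases, the kinases and regulators that sense uncharged tRNA or phosphorylate eIF2 held 1 DEG among 9 with each compound. That is 11.1%, against 36.1% of all genes with JQ1 and 26.9% under I-BET-762. EIF2AK2, the double-stranded RNA kinase PKR, fell by 0.93 and 0.73, and EIF2AK4 (GCN2) fell by 0.37 and 0.31. ATF4 itself rose by 0.44 and 0.13 at the RNA level. The 9 kinases and regulators had medians of -0.09 with JQ1 and 0.02 under I-BET-762. Of the other eIF2 kinases in this list, EIF2AK3 fell (-0.39 and -0.38) and EIF2AK1 did not pass (-0.09 and 0.02). Among 30 ATF4 amino acid response genes, without the synthetases, 6 were higher and 6 lower DEGs with JQ1 (40.0%, against 36.1% of all genes). Under I-BET-762 the counts were 4 and 6 (33.3%, against 26.9%). Medians of these 30 genes were 0.18 with JQ1 and -0.02 under I-BET-762. PYCR1, of proline synthesis, fell by 2.30 and 1.92 with 14.1% of its exon bases shared on the same strand, SLC6A9, a glycine transporter, fell by 1.94 and 1.47, and SLC7A11, the cystine transporter, fell by 1.67 and 1.58, while the transcription factor ATF3 rose by 1.94 and 1.38. The synthetase genes on the ATF4 list spanned -0.49 to 1.86 with JQ1, and -0.49 to 0.42 without the uncertain CARS1. Of 6 tested interferon-gamma-inducible genes, 3 were lower DEGs with each compound, against 22.8% of all genes with JQ1 and 17.9% under I-BET-762 (list medians -0.87 and -0.71). They were IDO1 (-3.38 and -3.63), GBP1 (-2.88 and -2.40) and NLRC5 (-1.25 and -0.99). In the same libraries the interferon-inducible synthetase WARS1 held 5312 to 5516.5 counts in DMSO, 5187.5 to 5422 with JQ1 and 4910.5 to 5115 under I-BET-762.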

How the data were processed

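Total RNA of SK-UT-1 cells was sequenced as strand-specific libraries. Per the labels and the study's methods, reads were checked with FastQC 0.73, passed through Trimmomatic, mapped by HISAT2 2.2.1 (hg38) and counted per gene by featureCounts 2.0.3. The deposited values are log2 of size-factor-normalized counts plus 1, made by the authors with DESeq2. Of 12 labelled samples, 10 had values and were analysed, whereas replicates 16 (DMSO) and 24 (I-BET-762) had no values in the data given here. The study's methods state that outlying samples were left out after boxplots and principal components, without saying which, so the spread may be that of groups already trimmed. Values were returned to normalized counts and, through the step of each library, to whole reads (99.73 to 99.77% whole within 0.01). Genes with a normalized count of at least 10 in at least 3 libraries entered a linear fit by limma 3.58.1 (R 4.3.3, moderated with an intensity trend, all 3 groups in 1 fit), and p-values were adjusted by Benjamini-Hochberg over all 14839 genes. Fold changes are on the log2(count + 1) scale and errors are standard errors. The fit was tested on simulated data. Python 3.11.15 made the tables (pandas 2.3.3, numpy 2.4.6) and figures (matplotlib 3.10.9).

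Nothing states that replicates came from separate cultures, so p-values measure only the spread between these samples, which may be technical. No replicate pair of the 12 was identical or within sampling noise. Floors cover counting error only. All members are named, and per-library values are given for DEGs and for the most and least abundant member per length in each compartment. From each related list the DEGs largest with JQ1 were named, up to 4, with other list members named for their role after their values were seen. A gene of the check on the inhibitor response is not reported here. The members and lists were chosen with earlier results of these data known. Positions and overlaps come from GENCODE V44, a later release than the authors used, exon copies from a search of hg38 (455 contigs, 261 of them alternate), and promoter sequences from RefSeq (GRCh38.p14). Alternatives covered the pseudocount, the filter, the scaling, the moderation, the samples fitted, the fold threshold and each library left out.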

Additional observations from a re-analysis of the deposited data

Results flagged for a closer look

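In the JQ1 group of 4 libraries, 1 library stood far from the other 3 for 5 of the 54 genes examined, by a gap test against Dixon's 95% critical value, which chance exceeds in about 1 in 20 groups. JQ1 replicate 18 was highest for 4 synthetase genes, with normalized counts of 17330.0 for EPRS1, 13805 for GARS1, 15526 for NARS1 and 9592 for IARS2. It was the highest of its group for 21 of the 33 members and had the highest normalized total of all libraries. Without it, JQ1 gave the same number of member DEGs, 3 higher and 2 lower. JQ1 replicate 20 was lowest for EIF2AK2, with 5558 counts.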

How the results depend on the processing

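Rescaling libraries to equal totals turned the members' median log2 fold change to -0.14 with JQ1 and -0.08 under I-BET-762, turned RARS2 with JQ1 to -0.04, and gave 4 lower members with JQ1 and 2 under I-BET-762. Without a fold threshold, 14 members were higher and 9 lower with JQ1, 14 and 8 under I-BET-762, and 5 and 4 between the compounds. Over 2-fold, 0 were lower with either inhibitor, MARS2 and the uncertain CARS1 were higher with JQ1, and 1 was higher under I-BET-762, again CARS1. The share of all genes over 2-fold was not counted, so these counts have no background to be read against. With each library left out in turn, I-BET-762 gave 1 to 2 lower members and a median of 0.01 to 0.04, and JQ1 a median of 0.03 to 0.08. Equal totals split all DEGs into 1212 higher and 4227 lower with JQ1, against 1979 and 3379, and 986 and 3071 under I-BET-762, against 1329 and 2662. Of 1548 values of single members under the alternatives, 5 newly met both DEG thresholds and 4 no longer did. The sign changed in 1 value of a member that had passed at the adjusted p (RARS2) and in 52 values of members that had not, such as KARS1, NARS1, EARS2, HARS2 and IARS2 with JQ1 and equal totals, where all 5 were called lower (-0.14 to -0.17). Limma-voom on the recovered reads, chosen after seeing the data, gave the same counts of member DEGs (3 higher and 2 lower, 3 and 1, 0 and 0). The planned edgeR and DESeq2 tests on these reads were not run. The cause of these shifts was not tested. No paired analysis was possible because the replicate numbers all differ between groups. Values under about 3 normalized counts, which CARS1 reached in DMSO, are limited by depth.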
